A study of Homo sapiens with 12 samples.

Results

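The genes described here are 9 members of the transforming growth factor beta (TGF-beta) system: the ligands TGFB1, TGFB2 and TGFB3, the latent binding proteins LTBP1 and LTBP3, the receptors TGFBR1 and TGFBR2, the induced matrix protein TGFBI and the secreted antagonist FSTL3. They were picked by gene symbol, and all 9 were among the 78894 genes of the count table. A filter on low counts kept 8 of them among the 11203 genes tested, and TGFB3 did not pass it. Cells were cardiomyocytes differentiated from WTC-mEGFP-ACTN2-cl85, an established line of human induced pluripotent stem cells with a green fluorescent tag on 1 ACTN2 allele, so that all cultures share this clone and this tag. After enrichment in lactate medium, cultures received vehicle (DMSO), 10 nM endothelin-1, 16 µM sacubitrilat or both compounds together for 48 h, with 3 culture replicates per group. Endothelin-1 is a peptide hormone that drives cardiomyocyte growth, and sacubitrilat is the active form of sacubitril, an inhibitor of the peptidase neprilysin. The comparisons ask how these genes differed with endothelin-1 and how they differed when sacubitrilat was added to it.

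TGF-beta ligands are made as precursors, cut by proprotein convertases and held in an inactive complex with their own propeptide, which a latent binding protein ties to the extracellular matrix. Integrins or proteases free the ligand, which binds the type II receptor, recruits the type I receptor and leads to phosphorylation of SMAD2 and SMAD3. In the heart the pathway is best known for matrix production by fibroblasts.

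Levels are given in CPM, the deposited unit, in which each count is scaled by its library's total. Total counts were 1268308 to 1953122 in the 6 single-compound libraries and 80844 to 316932 in the 6 vehicle and combination libraries, a 10.1-fold difference between the mean totals. Endothelin-1 and sacubitrilat libraries were of like total (ratio of summed totals 1.09), as were vehicle and combination libraries (1.49). In every other comparison the group difference and the difference in total counts cannot be told apart. The level that a count of 0 allows ran from 1.54 CPM (deepest library) to 37.1 CPM (shallowest library), for counting error only. Long noncoding RNA genes took 5.19 to 5.63% of the counts in the single-compound libraries and 7.6 to 10.9% in the others. Pseudogenes took 1.91 to 2.09% and 2.39 to 3.17% in the same split. Mitochondrially encoded genes took 11.4 to 22.1% with vehicle, 20.1 to 20.2% with endothelin-1, 15 to 17.2% with sacubitrilat and 12.8 to 17.6% with both. The part of these shares in the results was not tested. Groups follow the titles and treatment labels. In the 6 single-compound libraries a further description line contradicts the title by naming the opposite compound. Were that line right, each value given for endothelin-1 would belong to sacubitrilat and the reverse. Cardiomyocyte markers summed to 24200 to 31100 CPM with vehicle, 26700 to 28300 with endothelin-1, 18800 to 19600 with sacubitrilat and 26100 to 54500 with both, and 0 of 15 were at 0 in any group. Of the 15, 9 were called higher and 2 lower with endothelin-1 against vehicle, and 5 higher and 7 lower with both against endothelin-1. Between endothelin-1 and sacubitrilat 8 were called higher and 0 lower. Over all tested genes 23.2%, 34.4% and 11.2% were called in these comparisons, in either direction. The part of these markers in the results was not tested. These are bulk samples, so fewer cells of a type and less RNA per cell cannot be told apart.

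The start regions of 4 genes are shown as 2 examples of each direction of call between both compounds and endothelin-1: TGFB1 and FSTL3 were higher with both, and TGFBI and LTBP1 were lower. TGFB2 and LTBP3 were also called lower there and are not shown. Each is the RefSeq promoter window (GRCh38.p14) from 250 bases before to 50 bases after the annotated start, 5′ to 3′ on the gene's strand. The windows are chr19:41353873-41354172 on the minus strand for TGFB1, chr19:676142-676441 on the plus strand for FSTL3, chr5:136028738-136029037 on the plus strand for TGFBI and chr2:32946703-32947002 on the plus strand for LTBP1, the first of its 3 entries. Capitals mark any match, on either strand, of 6 motifs. The SP1 motif was searched as GGGCGG. The SMAD motif was CAGAC. The cyclic AMP response element (CRE) was TGACGTCA. The AP-1 motif was TGANTCA, where N is any base. The TATA box was searched as TATAAA. The TEAD motif was GGAATG. Overlapping matches run together.
TGFB1: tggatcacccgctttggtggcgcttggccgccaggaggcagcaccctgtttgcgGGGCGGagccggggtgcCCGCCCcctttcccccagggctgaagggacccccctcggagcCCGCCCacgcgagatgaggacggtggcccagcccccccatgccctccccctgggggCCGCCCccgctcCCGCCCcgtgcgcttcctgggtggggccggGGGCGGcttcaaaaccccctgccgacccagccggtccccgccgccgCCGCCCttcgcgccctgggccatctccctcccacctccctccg
FSTL3: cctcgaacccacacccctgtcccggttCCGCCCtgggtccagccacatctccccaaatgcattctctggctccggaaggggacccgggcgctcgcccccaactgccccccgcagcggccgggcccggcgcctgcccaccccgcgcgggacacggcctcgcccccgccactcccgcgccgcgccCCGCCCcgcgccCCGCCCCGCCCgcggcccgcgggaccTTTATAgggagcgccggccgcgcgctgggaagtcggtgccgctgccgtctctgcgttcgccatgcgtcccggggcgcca
TGFBI: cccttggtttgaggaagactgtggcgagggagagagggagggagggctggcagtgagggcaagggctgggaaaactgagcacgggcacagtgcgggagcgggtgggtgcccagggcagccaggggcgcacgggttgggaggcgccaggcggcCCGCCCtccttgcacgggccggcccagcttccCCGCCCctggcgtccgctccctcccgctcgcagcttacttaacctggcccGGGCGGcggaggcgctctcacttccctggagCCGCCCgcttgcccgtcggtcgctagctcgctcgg
LTBP1: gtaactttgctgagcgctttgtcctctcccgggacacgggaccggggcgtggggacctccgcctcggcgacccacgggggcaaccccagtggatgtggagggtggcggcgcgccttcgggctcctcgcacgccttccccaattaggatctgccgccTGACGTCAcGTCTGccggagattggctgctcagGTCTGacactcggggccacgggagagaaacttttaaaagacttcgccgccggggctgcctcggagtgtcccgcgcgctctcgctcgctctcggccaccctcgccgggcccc

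The TGFB1 window held 7 SP1 matches and none of the other motifs. FSTL3 had 4 SP1 matches, 2 of them overlapping, and a match of the TATA motif 29 bases before the start. That TATA match lies on the opposite strand (TTTATA as printed). TGFBI also had 4 SP1 matches. LTBP1 had no SP1 match but held 2 SMAD matches and 1 CRE match. Of all 35116 promoter windows, 45.0% held an SP1 match, 45.3% a SMAD match, 1.85% a CRE match, 7.71% an AP-1 match, 11.5% a TATA match on either strand and 14.0% a TEAD match. GC content was 77.3% for TGFB1, 78.7% for FSTL3, 72.7% for TGFBI and 68.7% for LTBP1, against a median of 58.7% over all windows. These matches describe letters in a window, and binding was not measured.

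TGFB1 encodes the main circulating and tissue isoform of the ligand (ENSG00000105329; GRCh38 chromosome 19, 41301587 to 41353911, minus strand). It stood at 158, 210 and 129 CPM in the vehicle libraries, at 65.7, 67.9 and 73.3 CPM with endothelin-1, at 63.2, 58.3 and 47.1 CPM with sacubitrilat and at 206, 271 and 504 CPM with both. Every single-compound library was below every vehicle library, every combination library was above every single-compound library, and vehicle and combination libraries overlapped by a narrow margin. Means were 166 ± 41.2, 68.9 ± 3.92, 56.2 ± 8.24 and 327 ± 157 CPM (SD, n = 3 each) in that order of groups. In the fit over all 12 libraries (edgeR quasi-likelihood test, Benjamini-Hochberg adjustment over all tested genes), TGFB1 was 2.22-fold lower with endothelin-1 than with vehicle (log2 fold change -1.15 ± 0.24 SE, adjusted p = 0.000524) and 3-fold lower with sacubitrilat (-1.59 ± 0.26, adjusted p = 1.49e-05). With both compounds it was 4.77-fold higher than with endothelin-1 (2.26 ± 0.22, adjusted p = 4.61e-10) and 6.46-fold higher than with sacubitrilat (adjusted p = 3.22e-11). These 4 calls held in all 22 alternatives run for each, with the libraries thinned to 80000 counts among them. The fit with exchanged labels, also among them, swaps these calls with one another by construction and could not end them.

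Between libraries of like total, the TGFB1 differences did not pass the threshold. Both compounds against vehicle gave a log2 fold change of 1.11 ± 0.26 (adjusted p = 0.0544, 95% interval 0.60 to 1.61), and endothelin-1 against sacubitrilat gave 0.44 ± 0.17 (adjusted p = 0.0844). The first passed without the combination replicate 1 (1.34, adjusted p = 0.00936), without vehicle replicate 2 (1.18, adjusted p = 0.00852) and without both of these libraries, the 2 under 100000 counts (1.38, adjusted p = 0.000576). The second passed in the compared groups alone (adjusted p = 0.00849), without vehicle replicate 2 (adjusted p = 0.0411) and without the combination replicate 1 (adjusted p = 0.0362) or 3 (adjusted p = 0.0405). On the other strand TGFB1 is overlapped by HNRNPUL1, which shares 215 of the 3238 exonic bases of TGFB1, and by TMEM91, CCDC97 and AC011462.1, which share none. HNRNPUL1 stood at means of 336, 366, 495 and 242 CPM in the vehicle, endothelin-1, sacubitrilat and combination groups, the reverse of the order of TGFB1. TMEM91 stood at 15.4, 6.76, 5.19 and 21.0 CPM and AC011462.1 at 39.4, 41.5, 25.9 and 70.7 CPM, and TMEM91 had the same order as TGFB1. The part of these neighbours in the TGFB1 counts was not tested. The strand setting of the counting is not given in the sources used here.

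TGFB2 encodes a ligand that acts in heart valve and septum formation (ENSG00000092969; chromosome 1, 218346235 to 218444619, plus strand). It stood at 37.9, 0 and 41 CPM with vehicle, at 36.5, 42.4 and 49.4 CPM with endothelin-1, at 54, 46.5 and 48.9 CPM with sacubitrilat and at 0, 22 and 3.71 CPM with both. Where TGFB2 was at 0, that count allows up to 37.1 CPM (vehicle replicate 2) and 34.4 CPM (combination replicate 1). The combination libraries lay below all single-compound libraries but rested on 4 counts in sum, against 212.5 with endothelin-1, 228 with sacubitrilat and 19 with vehicle. In the combination TGFB2 was lower than with endothelin-1 (log2 fold change -2.04 ± 0.66, adjusted p = 0.0147) and than with sacubitrilat (-2.15 ± 0.65, adjusted p = 0.00909). Leaving out the combination replicate 1 (adjusted p = 0.0847 and 0.0651) or replicate 3 (0.127 and 0.0932) ended both calls, and a mean filter of 20 counts ended the first (adjusted p = 0.0538). Against vehicle, neither compound alone nor both gave a call. TGFB2 counts were fractional in 5 of 12 libraries. TGFB2-OT1 lies on the same strand within the end of TGFB2, and the summed level of the pair was 37.4 ± 32.5 CPM with vehicle, 63.7 ± 6.69 CPM in the endothelin-1 group, 72.7 ± 6.96 CPM under sacubitrilat and 10.9 ± 12.9 CPM under the combination (SD, n = 3).

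TGFB3 encodes the third ligand isoform (ENSG00000119699; chromosome 14, 75958099 to 75982991, minus strand) and was near the floor. In sum it had 2 counts in the vehicle group, 18 in the endothelin-1 group, 35 in the sacubitrilat group and 1 in the combination group. Single libraries held 2, 8 and 8 with endothelin-1 and 10, 12 and 13 with sacubitrilat, with no overlap. The ratio of the summed levels of endothelin-1 to sacubitrilat was 0.474 with a counting interval of 0.253 to 0.859, which covers counting error only and is no test of the compounds.

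LTBP1 encodes the latent binding protein that anchors the inactive complex to fibrillin-rich matrix (ENSG00000049323; chromosome 2, 32946972 to 33399509, plus strand). It stood at 161, 86.6 and 117 CPM with vehicle, at 352, 329.8 and 377 CPM with endothelin-1, at 179, 162 and 182 CPM with sacubitrilat and at 91.7, 132 and 81.5 CPM with both. All endothelin-1 libraries lay above all others, and vehicle and combination libraries overlapped. LTBP1 was 2.66-fold higher with endothelin-1 than with vehicle (1.41 ± 0.20, adjusted p = 1.11e-06). It was 3.45-fold lower with both than with endothelin-1 (-1.79 ± 0.24, adjusted p = 3.49e-07). Between the deep groups of like total it was 2.19-fold higher with endothelin-1 than with sacubitrilat (1.13 ± 0.12, adjusted p = 2.52e-09). Sacubitrilat against vehicle gave 0.28 ± 0.22 (adjusted p = 0.381), and both against vehicle gave -0.38 ± 0.34 (adjusted p = 0.714). Both against sacubitrilat gave -0.66 ± 0.27 (adjusted p = 0.0568), which passed in 7 of 22 alternatives. These were RLE scaling (adjusted p = 0.046), DESeq2 (0.0343), the compared groups alone (0.0344), no filter (-1.14, adjusted p = 0.00176), exchanged labels (3.49e-07), and the fits without vehicle replicate 1 (0.0419) or the combination replicate 2 (-0.99, adjusted p = 0.042). The fit with exchanged labels repeats by construction the call of both against endothelin-1.

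LTBP3 encodes a second latent binding protein (ENSG00000168056; chromosome 11, 65538805 to 65558930, minus strand) and moved less. It stood at 69.4, 124 and 58.6 CPM with vehicle, at 123, 119 and 129 CPM with endothelin-1, at 86.7, 77.3 and 85 CPM with sacubitrilat and at 80.2, 81.9 and 74.1 CPM with both. Endothelin-1 libraries overlapped with vehicle replicate 2 alone. LTBP3 was 1.61-fold higher with endothelin-1 than with sacubitrilat (0.69 ± 0.11, adjusted p = 2.42e-05). It was also higher with endothelin-1 than with vehicle (0.77 ± 0.23, adjusted p = 0.0113), a call lost without vehicle replicate 1 (adjusted p = 0.076) or 3 (adjusted p = 0.0995), with a mean filter of 20 counts (0.57, adjusted p = 0.0599), after thinning (0.19, adjusted p = 0.877) and with exchanged labels (0.08). With both compounds it was lower than with endothelin-1 (-0.69 ± 0.26, adjusted p = 0.04), and 9 of 22 alternatives kept that call. The fit with a replicate block was among those that ended it (adjusted p = 0.0546), as was the exchange of labels (0). Leaving out endothelin-1 replicate 1 or 3, any sacubitrilat replicate or any combination replicate each ended it (adjusted p from 0.0528 to 0.144).

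TGFBR1 encodes the type I receptor kinase (ENSG00000106799; chromosome 9, 99104038 to 99154192, plus strand) and TGFBR2 the type II receptor that binds the ligand first (ENSG00000163513; chromosome 3, 30606502 to 30694142, plus strand). The vehicle libraries held TGFBR1 at 41, 24.7 and 52.7 CPM, the endothelin-1 libraries at 31.4, 33.9 and 24.4, the sacubitrilat libraries at 23.5, 35.5 and 37.4 and the combination libraries at 0, 25.2 and 7.41. The same libraries held TGFBR2 at 9.47, 12.4 and 0 CPM, at 9.54, 10.2 and 18, at 12.5, 15.8 and 16.4 and at 34.4, 12.6 and 29.6. Neither receptor was called in any of the 6 comparisons of the reported fit. Without a filter on low counts, TGFBR1 was called lower with both than with endothelin-1 (-1.69, adjusted p = 0.0365) and than with sacubitrilat (-1.71, adjusted p = 0.0318). The combination group held 5 counts of TGFBR1 and 9 of TGFBR2, so the intervals were wide: both against endothelin-1 gave -1.21 (95% interval -2.45 to 0.03) for TGFBR1 and 0.86 (-0.29 to 2) for TGFBR2. Between the deep groups the intervals were narrower, -0.40 to 0.36 for TGFBR1 and -0.66 to 0.40 for TGFBR2.

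TGFBI encodes a secreted matrix protein named for its induction by TGF-beta (ENSG00000120708; chromosome 5, 136028895 to 136063818, plus strand). It stood at 85.2, 136 and 99.6 CPM with vehicle, at 158, 164 and 169.8 CPM with endothelin-1, at 152, 141 and 153 CPM with sacubitrilat and at 34.4, 44.1 and 22.2 CPM with both. The 3 combination libraries lay below all 9 others, and all single-compound libraries lay above all vehicle libraries. With both compounds TGFBI was 4.91-fold lower than with endothelin-1 (-2.30 ± 0.33, adjusted p = 7.75e-07) and 4.12-fold lower than with sacubitrilat (-2.04 ± 0.34, adjusted p = 1.09e-05), and both calls held in all 22 alternatives. Among these, the fit with exchanged labels swaps the calls by construction and could not end them. It was higher with endothelin-1 than with vehicle (0.79 ± 0.21, adjusted p = 0.00455), a call lost without vehicle replicate 1 (0.70, adjusted p = 0.0688) and in libraries thinned to 80000 counts (0.58, adjusted p = 0.485). Sacubitrilat against vehicle gave 0.53 ± 0.21 (adjusted p = 0.0701). Both against vehicle, in libraries of like total, gave -1.51 ± 0.43 (adjusted p = 0.126, 95% interval -2.34 to -0.67). Endothelin-1 against sacubitrilat gave 0.26 ± 0.10 (adjusted p = 0.109), which passed without vehicle replicate 2 (0.28, adjusted p = 0.0351) and in the compared groups alone (0.27, adjusted p = 0.0213).

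FSTL3 encodes follistatin-like 3, a secreted protein that binds and blocks activins and myostatin (ENSG00000070404; chromosome 19, 676365 to 683399, plus strand). It stood at 69.4, 111 and 99.6 CPM with vehicle, at 129.7, 126 and 108 CPM with endothelin-1, at 52.9, 65.4 and 65 CPM with sacubitrilat and at 218, 157 and 259 CPM with both. All combination libraries lay above all others, and all sacubitrilat libraries lay below all others. FSTL3 was 2.13-fold higher with endothelin-1 than with sacubitrilat (1.09 ± 0.13, adjusted p = 5.23e-08), in deep libraries. It was 2.44-fold higher with both than with vehicle (1.29 ± 0.29, adjusted p = 0.0469), in shallow libraries. That second call was lost in 16 of 22 alternatives, and a replicate block gave 0.104. Adjusted p ran from 0.00133 to 0.418 over all 22, and from 0.056 to 0.418 in the 16 that lost it. Leaving out any single library other than vehicle replicate 2 ended it, with values of 1.07 to 1.47. With both compounds FSTL3 was higher than with endothelin-1 (0.74 ± 0.21, adjusted p = 0.00632), a call lost without the combination replicate 3 (0.52, adjusted p = 0.148), without a filter (0.26, adjusted p = 0.617) and after thinning (0.80, adjusted p = 0.173). It was also higher than with sacubitrilat (1.84 ± 0.24, adjusted p = 1.34e-07). Endothelin-1 against vehicle gave 0.55 ± 0.24 (adjusted p = 0.0899).

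**Figure D1:**
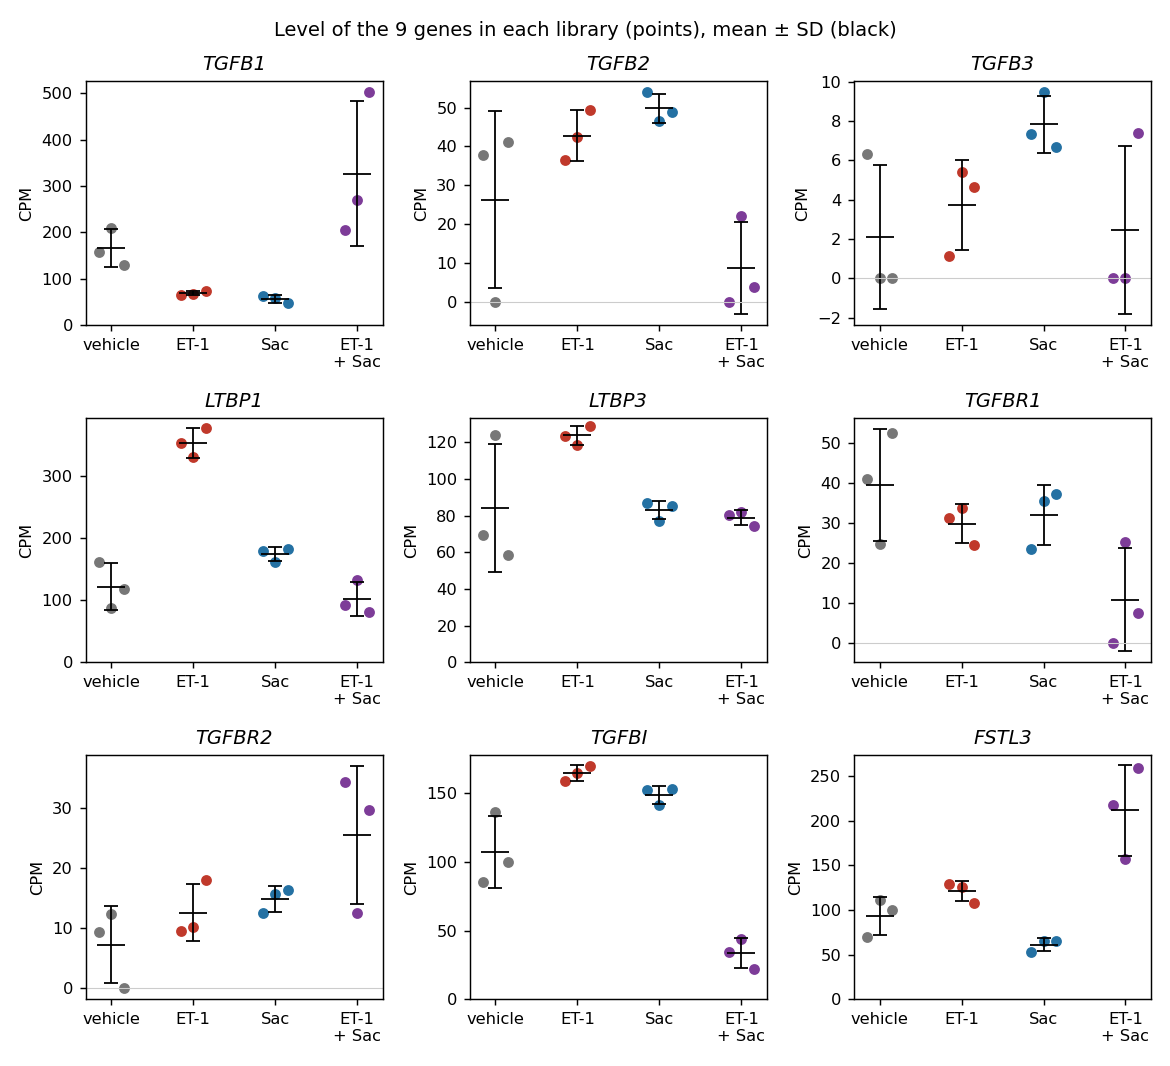
Level of each of the 9 genes in CPM (vertical axis) in the vehicle, endothelin-1 (ET-1), sacubitrilat (Sac) and combination groups, with 1 point per library and black bars for the mean and SD of 3 libraries. TGFB1 runs from 206 to 504 CPM in the combination libraries, where TGFBI runs from 22.2 to 44.1 CPM.

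Counted over the members, endothelin-1 against vehicle called 4 of 8 tested, 3 higher (LTBP1, LTBP3 and TGFBI) and 1 lower (TGFB1), where 23.2% of all tested genes were called in either direction. Both against endothelin-1 called 6, with 2 higher (TGFB1 and FSTL3) and 4 lower (TGFB2, LTBP1, LTBP3 and TGFBI), beside 34.4% of all tested genes. Sacubitrilat against vehicle called 1, TGFB1, which was lower, beside 19.9%. DESeq2 also called TGFBI there, as higher (0.56, adjusted p = 0.0489), and called 2328 genes in all. Both against sacubitrilat called 4, with 2 higher (TGFB1 and FSTL3) and 2 lower (TGFB2 and TGFBI), beside 35.0%. In libraries of like total, endothelin-1 against sacubitrilat called 3, all higher (LTBP1, LTBP3 and FSTL3), beside 11.2%. After all libraries were thinned to 80000 counts, 0 of these 3 were called by edgeR. LTBP1 then gave 1.41 (adjusted p = 0.0631), FSTL3 1.14 (adjusted p = 0.787) and LTBP3 0.12 (adjusted p = 1), and 15 of all 11203 genes were called. Both against vehicle called 1, FSTL3, which was higher, beside 0.179%. DESeq2 called 3 members there: FSTL3, TGFB1 (1.11, adjusted p = 0.0168) and TGFBI (-1.48, adjusted p = 0.0294). It called 156 of the 3167 genes to which it gave an adjusted p. Median log2 fold changes of the 8 tested members were 0.66 for endothelin-1 against vehicle and -0.95 for both against endothelin-1, beside 0.10 and -0.23 over all tested genes. These comparisons share groups with one another, so their counts are not independent. For the difference in differences (the endothelin-1 change with sacubitrilat present minus that without), 5 members were called, beside 46.1% of all tested genes.

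**Figure D2:**
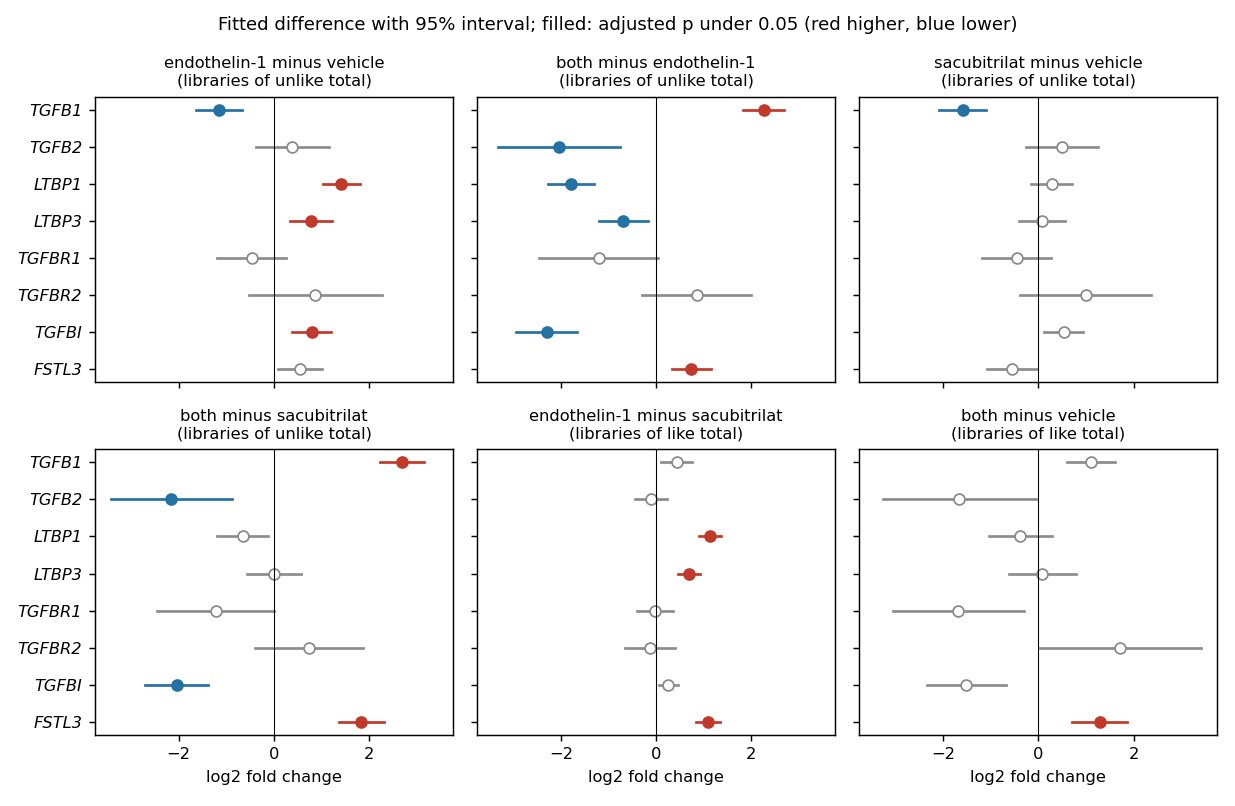
Fitted log2 fold change (horizontal axis) with its 95% interval for the 8 tested genes in 6 comparisons, filled where the adjusted p was under 0.05 (red higher, blue lower). TGFB1 is filled blue at -1.15 with endothelin-1 against vehicle and filled red at 2.26 with both against endothelin-1, and TGFBI is filled red at 0.79 and blue at -2.30 in the same panels.

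TGFB1 was also set against other members within each library, where the library total cancels. Of the summed counts of TGFB1 and TGFBI, TGFB1 took 56.4 to 64.9% in the vehicle libraries, 29.2 to 30.1% with endothelin-1, 23.6 to 29.4% with sacubitrilat and 85.7 to 95.8% with both. Beside LTBP1 the shares were 49.5 to 70.8%, 15.7 to 17.1%, 20.5 to 26.5% and 67.2 to 86.1% in the same order. Beside LTBP3 they were 63 to 69.4%, 34.7 to 36.4%, 35.7 to 43% and 72 to 87.2%. Both groups of low total lay above both groups of high total in all 3 pairs. Beside FSTL3, a gene that was also highest with both, the shares were 56.4 to 69.4%, 33.6 to 40.4%, 42 to 54.4% and 48.6 to 66%, so the vehicle and combination ranges overlapped. These shares are descriptions, and no test was run on them. They compare a gene's share between libraries, not the levels of different genes.

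**Figure D3:**
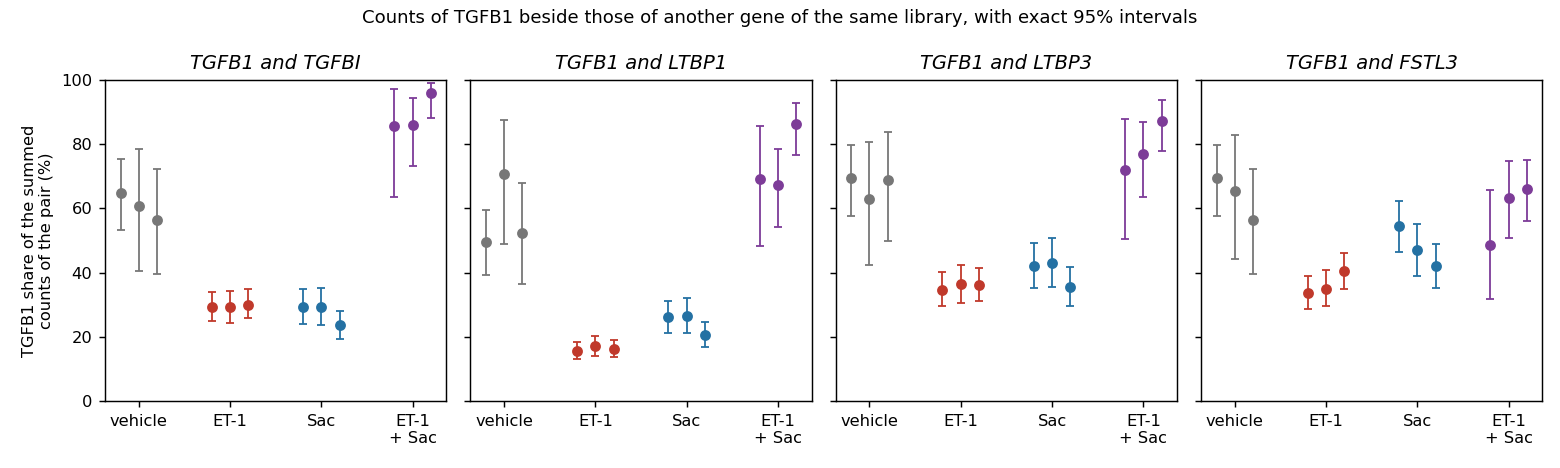
TGFB1 counts as a percentage of the summed counts of TGFB1 and 1 other gene (vertical axis) in each library, with exact 95% binomial intervals, for TGFBI, LTBP1, LTBP3 and FSTL3. Beside TGFBI the combination libraries run from 85.7 to 95.8% and the endothelin-1 libraries from 29.2 to 30.1%.

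Among genes known to be induced by TGF-beta (42 listed, 38 tested), endothelin-1 against vehicle called 25 higher and 1 lower, and both against endothelin-1 called 0 higher and 30 lower, beside 23.2% and 34.4% of all tested genes called in either direction. With a replicate block the 25 became 22. Of the same 38 genes, sacubitrilat against vehicle called 16 higher and 1 lower (median 0.63), beside 19.9% of all tested genes. Both against sacubitrilat called 1 higher and 22 lower (median -1.13), beside 35.0%. A rise against vehicle and a fall with both were thus not particular to the endothelin-1 group. CCN2, a matricellular protein and a classical SMAD target, rose from 78.5 ± 27.5 CPM with vehicle to 459 ± 27.7 with endothelin-1 (log2 fold change 2.40 ± 0.23, adjusted p = 4.55e-10) and stood at 22.1 ± 22 CPM with both (-4.16 ± 0.35 against endothelin-1, adjusted p = 1.14e-11). POSTN, the matrix protein periostin, rose from 11.2 to 79.5 CPM (2.93 ± 0.44), and the cell cycle inhibitor CDKN1A from 117 to 686 CPM (2.33 ± 0.22). The 1 lower gene was TNC, the matrix glycoprotein tenascin C, at 158 CPM with vehicle and 84.9 CPM with endothelin-1 (-0.92 ± 0.22). LOX, which cross-links collagen, fell from 84.6 CPM with endothelin-1 to 4.57 CPM with both (-4.00 ± 0.60). For SNAI2, a transcriptional repressor, the endothelin-1 libraries held 74 counts and the combination libraries 0, at least 1.89-fold lower when the group's floor is set at 3 counts. The list's median log2 fold change was 0.94 with endothelin-1 against vehicle and -1.42 with both against endothelin-1 (-1.39 with SNAI2 at its bound), beside 0.10 and -0.23 over all tested genes. After thinning to 80000 counts the list held 13 higher and 18 lower calls in these comparisons. Over all 11203 tested genes, 587 and 1215 were then called in either direction. TNC lost its call without vehicle replicate 1 (-0.76, adjusted p = 0.0749), without a filter (-0.67, adjusted p = 0.061) and after thinning (-1.02, adjusted p = 0.188). The sign of TNC turned with exchanged labels (0.54). SNAI2 lost its call without the combination replicate 2 (adjusted p = 0.056) and after thinning (-2.65, adjusted p = 0.413).

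In the libraries of like total, endothelin-1 against sacubitrilat called 14 higher genes of this list and 3 lower of 38 (median 0.37, beside -0.01 over all tested genes, of which 11.2% were called). LOX (1.97 ± 0.16), IGFBP7, an insulin-like growth factor binding protein (1.75 ± 0.18), and POSTN (1.54 ± 0.16) were higher. TNC (-1.47 ± 0.12), IGFBP3 (-0.87 ± 0.11) and the hyaluronan synthase HAS2 (-0.77 ± 0.24) were lower. Both against vehicle called 0 higher and 2 lower: the matricellular protein CCN1, from 115 to 13.3 CPM (-2.72 ± 0.62, adjusted p = 0.0469), and IGFBP3, from 114 to 24.2 CPM (-2.22 ± 0.47, adjusted p = 0.0285). Over all tested genes, 0.179% were called in that comparison. A replicate block ended both calls (adjusted p = 0.0648 and 0.0592), as did thinning (adjusted p = 0.123 and 0.638). CCN1 lost its call without any single library other than vehicle replicate 1 or 2 (adjusted p from 0.061 to 0.224). IGFBP3 lost its call without vehicle replicate 1 or 3 or any combination replicate (adjusted p from 0.0705 to 0.165). Without the 2 libraries under 100000 counts, the list held 23 higher genes with endothelin-1 against sacubitrilat, and after thinning it held 3. Of all 11203 tested genes, these settings called 1814 and 15 in that comparison, in either direction. HAS2 lost its call there without endothelin-1 replicate 1 or 2 or any sacubitrilat replicate (adjusted p from 0.0579 to 0.138).

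Genes of the latent complex and its activation (24 listed, 20 tested) were called 8 higher and 3 lower with endothelin-1 against vehicle, and 3 higher and 12 lower with both against endothelin-1 (medians 0.49 and -1.22), beside 23.2% and 34.4% of all tested genes. FURIN, a convertase that cuts the TGF-beta precursor, had mean levels of 36.3, 169, 104 and 29.7 CPM in the vehicle, endothelin-1, sacubitrilat and combination groups (2.44 ± 0.30 with endothelin-1 against vehicle, -2.45 ± 0.35 with both against endothelin-1). The fibrillins FBN2 (1.71 ± 0.21) and FBN1 (1.48 ± 0.24), to whose microfibrils latent binding proteins attach, rose with endothelin-1 against vehicle. LTBP4, a latent binding protein outside the 9 members, went the other way, at 534, 271, 248 and 720 CPM in that order of groups (-0.90 ± 0.16 and 1.37 ± 0.16 in the same comparisons). So did MMP14, a membrane-bound protease, at 113, 50.5, 65.4 and 169 CPM (-1.09 ± 0.24 and 1.67 ± 0.24). ITGB8, a subunit of the latency-activating integrin, was lower with endothelin-1 than with vehicle (-2.41 ± 0.53) and than with sacubitrilat (-2.36 ± 0.28, 4.37 against 25.3 CPM). Thinning ended both ITGB8 calls (-0.70, adjusted p = 0.788, and -0.56, adjusted p = 0.977). Of the 20 tested genes, sacubitrilat against vehicle called 2 higher and 4 lower (median 0.24), beside 19.9% of all tested genes. Both against sacubitrilat called 4 higher and 10 lower (median -1.1), beside 35.0%. Endothelin-1 against sacubitrilat called 8 higher and 1 lower, with FBN2 (1.13 ± 0.12), ITGB3, an integrin subunit (0.95 ± 0.23), and FBN1 (0.86 ± 0.13) higher, beside 11.2% of all tested genes. Both against vehicle called 0 of 20, beside 0.179% of all tested genes. DESeq2 called 1 higher and 1 lower there, beside 156 of the 3167 genes to which it gave an adjusted p. After thinning, 4 higher and 1 lower were called with endothelin-1 against vehicle, 2 higher and 5 lower with both against endothelin-1, and 1 higher with endothelin-1 against sacubitrilat. Of all 11203 tested genes, thinning left 587, 1215 and 15 called in these comparisons.

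SMAD proteins and their regulators (23 listed and tested) were called 4 higher and 1 lower with endothelin-1 against vehicle, and 2 higher and 9 lower with both against endothelin-1 (medians 0.32 and -0.82), beside 23.2% and 34.4% of all tested genes. With a replicate block the 9 became 7, and after thinning 2 higher and 1 lower, and 1 higher and 1 lower, were called. Thinning left 587 and 1215 of all 11203 tested genes called in these comparisons. Of the same 23 genes, sacubitrilat against vehicle also called 4 higher and 1 lower (median 0.285), beside 19.9% of all tested genes. Both against sacubitrilat called 3 higher and 7 lower (median -0.94), beside 35.0%. The inhibitory SMADs rose with endothelin-1: SMAD6 from 8.41 to 67.4 CPM (2.28 ± 0.46) and SMAD7 from 16.1 to 47.5 CPM (1.61 ± 0.42). With both compounds they stood at 7.64 and 9.14 CPM, lower than with endothelin-1 (-3.68 ± 0.72 and -2.20 ± 0.57). ZFYVE16, an endosomal scaffold protein, fell with endothelin-1 against vehicle (-1.12 ± 0.26) and was higher with both than with endothelin-1 (1.58 ± 0.27). Endothelin-1 against sacubitrilat called 5 higher and 2 lower, among them SMAD7 higher (0.76 ± 0.16) and the corepressors TGIF1 (-0.51 ± 0.17) and TGIF2 (-0.54 ± 0.14) lower, beside 11.2% of all tested genes. After thinning it called 0 of 23, beside 15 of all 11203 tested genes. Both against vehicle called 0 of 23, beside 0.179% of all tested genes. SMAD7 lost its call against vehicle without vehicle replicate 1 (1.39, adjusted p = 0.0778) and after thinning (1.34, adjusted p = 0.407). Thinning also ended its call for both against endothelin-1 (-1.24, adjusted p = 0.379). The calls of TGIF1 ended without endothelin-1 replicate 2 or 3 or any sacubitrilat replicate (adjusted p from 0.0635 to 0.207), with DESeq2 (0.18), with limma-voom (0.195), without a filter (0.128) and with a replicate block (0.0671), and that of TGIF2 without endothelin-1 replicate 3 (0.0828) or sacubitrilat replicate 3 (0.0668).

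Other ligands and extracellular antagonists of the family (28 listed, 14 tested) were called 6 higher and 1 lower with endothelin-1 against vehicle, 1 higher and 6 lower with both against endothelin-1, and 7 higher and 1 lower with endothelin-1 against sacubitrilat (medians 0.42, -0.78 and 0.35), beside 23.2%, 34.4% and 11.2% of all tested genes. With a replicate block the first became 5 higher and 0 lower and the last 5 higher and 0 lower. After thinning the first called 2 higher and 0 lower, the second 0 higher and 2 lower, and the last 0. Of all 11203 tested genes, 587, 1215 and 15 were then called. In the reported fit, sacubitrilat against vehicle called 3 higher and 1 lower of the 14 (median -0.20), beside 19.9% of all tested genes. Both against sacubitrilat called 2 higher and 4 lower (median -0.21), beside 35.0%. INHBA, the activin A subunit whose dimer FSTL3 binds, was higher with endothelin-1 than with sacubitrilat (1.01 ± 0.12, 187 against 101 CPM), as were the proteoglycan BGN (0.96 ± 0.13) and the stress-linked ligand GDF15 (0.93 ± 0.19). FSTL1, a secreted glycoprotein, stood at 82.5, 275, 242 and 34.5 CPM in the vehicle, endothelin-1, sacubitrilat and combination groups (1.41 ± 0.27 with endothelin-1 against vehicle, -2.84 ± 0.42 with both against endothelin-1). LEFTY2, a nodal inhibitor, stood at 30.1, 95.3, 76 and 15.8 CPM (1.46 ± 0.33 and -2.40 ± 0.48). Of 12 further receptors and co-receptors, 8 were tested. Endothelin-1 against vehicle called 2 of them higher and 1 lower, and both against endothelin-1 called 1 higher and 1 lower (medians 0.50 and 0.09). Over all tested genes 23.2% and 34.4% were called in these comparisons, in either direction. Thinning left 0 higher and 1 lower, and 1 higher and 1 lower, beside 587 and 1215 of all 11203 tested genes. Sacubitrilat against vehicle called 3 receptors higher and 1 lower, beside 19.9% of all tested genes. Both against sacubitrilat called 1 higher and 2 lower, beside 35.0%. The decoy receptor BAMBI rose with endothelin-1 (1.05 ± 0.22) and was lower with both than with endothelin-1 (-2.41 ± 0.34), and the BMP receptor BMPR1A went the opposite way (-1.58 ± 0.28 and 1.82 ± 0.31). Thinning ended the call of BAMBI against vehicle (0.91, adjusted p = 0.248). Both against vehicle called 0 genes in either list, beside 0.179% of all tested genes.

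**Figure D4:**
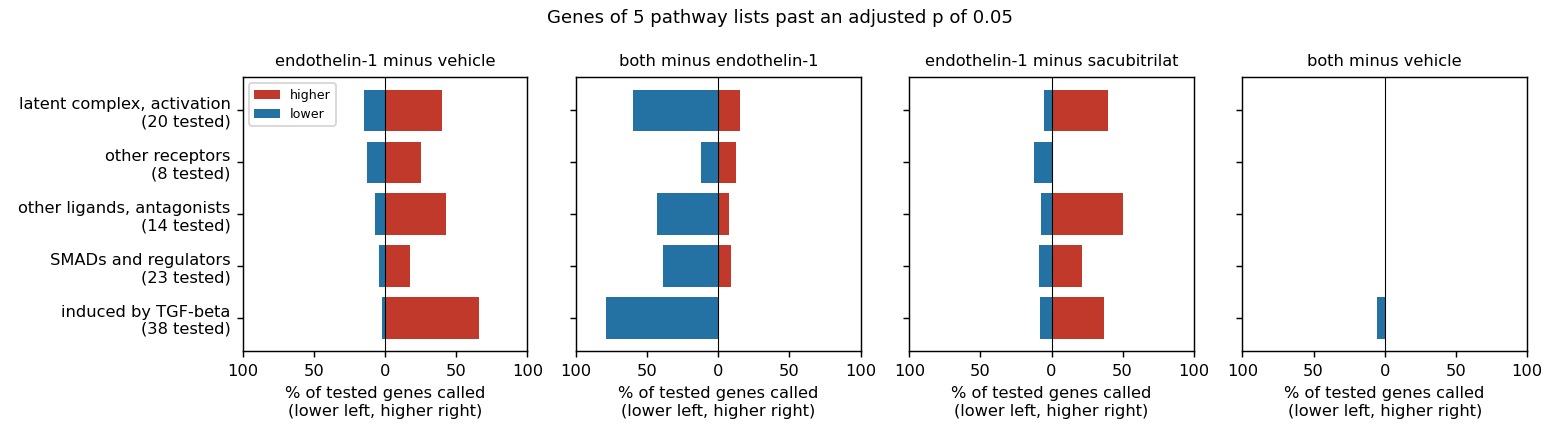
Percentage of the tested genes of 5 pathway lists called higher (right, red) or lower (left, blue) at an adjusted p under 0.05 in 4 comparisons. The list of genes known to be induced by TGF-beta has 25 of 38 higher with endothelin-1 against vehicle and 30 of 38 lower with both against endothelin-1, and the fourth panel, both against vehicle, holds 2 lower genes of that list and none of the others. Over all tested genes, 23.2%, 34.4%, 11.2% and 0.179% were called in either direction, in the order of the panels.

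Markers of other cell types moved with these genes. The 13 fibroblast markers summed to 1980 to 5260 CPM in the vehicle libraries, with MFAP5 and FAP at 0, to 6980 to 7850 with endothelin-1, to 7260 to 7620 with sacubitrilat and to 2140 to 4660 with both. The 10 smooth muscle markers summed to 547 to 2250, 3880 to 3910, 3130 to 3160 and 974 to 2350 CPM in that order, with 0 of 10 at 0 in any group. Both sums were higher in the single-compound libraries, as were TGFBI and the induced list. The 9 endoderm and liver markers ran the other way, at 207 to 705, 56.7 to 88.9, 52.9 to 65.5 and 474 to 596 CPM, as did TGFB1. The 6 blood and macrophage markers did so as well, at 13.2 to 68, 4.94 to 6.74, 5.32 to 8.08 and 40.1 to 75.6 CPM, with CD14, CSF1R and HBG1 at 0 in the vehicle libraries. The 9 epicardial markers summed to 378 to 656, 233 to 243, 398 to 458 and 479 to 519 CPM. The part of these cells in the results was not tested. Endothelial markers summed to at most 68.7 CPM and pluripotency markers to at most 22.9 CPM. The fibroblast markers include POSTN, also of the induced list, and DCN, also of the list of ligands and antagonists. Their sum is therefore not independent of those lists.

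Over the 12 libraries, the levels of TGFB1 and TGFBI gave a Pearson r of -0.88 on the log2 CPM scale, and TGFB1 and FSTL3 gave 0.73. These are descriptions over libraries that differ in total counts. Of 9837 genes at 10 CPM or more, the 5 most like TGFB1 were NDUFS8 (r = 0.98), IL32 (0.98), NDUFS5 (0.98), PLEC (0.97) and RPS4XP19 (0.96), a pseudogene whose reads may be shared with RPS4X. NDUFS8 and NDUFS5, subunits of respiratory complex I, stood at 437, 210, 196 and 598 CPM and at 875, 449, 437 and 1300 CPM in the vehicle, endothelin-1, sacubitrilat and combination groups. The 5 most like TGFBI were LEPROT (0.98), ATP2C1 (0.98), MYZAP (0.97), MRPL34 (0.97) and C19orf12 (0.97). LEPROT, named for the transcript it shares with the leptin receptor gene, stood at 56.1, 99.9, 121 and 12.6 CPM.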

How the data were processed

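RNA was measured in 12 libraries of iPSC-derived cardiomyocytes, made by poly(dT) priming with unique molecular identifiers and stranded 3′-end counting, per the labels' protocols. The submitters' processing notes name fastp 0.24.0, featureCounts and the GRCh38 build. Which aligner, annotation release and strand setting were used, and how the identifiers were used, is not given in the sources used here. The authors deposited an estimated count for each gene. Some were fractional, and all were rounded here for tests. Deposited CPM values differed by at most 1.46e-11 from CPM recomputed here from those counts. The 92 spike-in features, with 0 counts, were left out.

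The quasi-likelihood test of edgeR 4.0.16 (R 4.3.3) was fitted to the 12 libraries together with a term for group, after filterByExpr and with TMM scaling. Benjamini-Hochberg adjustment ran over 11203 genes, and calls needed an adjusted p under 0.05. Each SE was taken from the fold change and the F statistic. The fitting was tested on simulated data. The alternatives tried were DESeq2 1.42.0, limma-voom (limma 3.58.1), RLE scaling, the absence of a filter, a filter at a mean of 20 counts, a replicate block, the compared groups alone, dropping the 2 libraries under 100000 counts, a thinning to 80000 counts, exchanged endothelin-1 and sacubitrilat labels, and leaving out each library. The labels carry the replicate number under a batch tag shared by the groups, so blocked values are given beside the members and described genes whose calls it ended, and for some list counts. Over 18 pairs of same-numbered libraries, the correlation of deviations from the group means ran from -0.146 to 0.0396. Nothing in the labels beyond "biological replicate" says how the cultures were separated, so p-values measure the spread between these libraries.

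Members and gene lists were chosen with earlier results of these data known. Named genes were the 9 members, up to 3 called genes per direction with the largest changes in each pathway list at a mean of at least 10 CPM, and the 5 genes most correlated with TGFB1 and with TGFBI on log2 CPM with a prior count of 2. Gene coordinates come from GENCODE 29 and promoters from RefSeq, where 9 of 9 members matched by symbol.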

Additional observations from a re-analysis of the deposited data

Results flagged for a closer look

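The difference in differences compares the change that endothelin-1 brought with sacubitrilat present against the change it brought without, as a log2 value from the same edgeR fit, and 46.1% of all tested genes were called for it. Of the members, 5 were called: TGFB1 (3.84) and FSTL3 (1.29) above 0, and TGFB2 (-2.54), LTBP1 (-2.07) and TGFBI (-2.83) below 0. Of the 39 named pathway genes, 32 were called, 8 above 0 and 24 below. These genes were picked for large changes in comparisons of the same groups. That choice favours calls here, so the 32 are no measure of the lists. FSTL3 lost its call without a filter (0.55, adjusted p = 0.393) and after thinning (1.19, adjusted p = 0.199), and TGFB2 lost its call without the 2 libraries under 100000 counts (-1.73, adjusted p = 0.0528). In this contrast the 2 groups of low total counts stand against the 2 of high total counts, so the compounds and the total counts cannot be told apart.

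Of the latent complex genes, the values were LTBP4 (2.51), FBN1 (-1.4), FBN2 (-2.79), ITGB3 (2.09), FURIN (-4.1) and MMP14 (2.53). Among the receptors they were BAMBI (-3.22), ACVR1B (-2.18), ACVR2B (-2.14) and BMPR1A (3.31). Ligands and antagonists gave INHBA (-1.09), GDF15 (1.49), LEFTY2 (-3.44), FSTL1 (-3.96), GREM1 (3.12) and DCN (-2.53). SMAD proteins and regulators gave SMAD6 (-5.27), SMAD7 (-3.04), SMAD9 (-4.13), TGIF2 (-3.62), SMURF1 (-3.04), SMURF2 (1.5) and ZFYVE16 (2.58). Genes known to be induced by TGF-beta gave CCN1 (-2.74), CCN2 (-5.55), POSTN (-4.74), LOX (-3.73), IGFBP3 (-4.28), IGFBP7 (-2.39), CDKN1A (-4), SNAI2 (-6.92) and HAS2 (-3.39). The SNAI2 value depends on the prior count of the fit, since the combination libraries held 0 counts of it.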

How the results depend on the processing

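TGFB1 kept its direction and side of the threshold in all 22 alternatives of each of the 4 comparisons between libraries of unlike total, with values of -1.59 to -0.9 for endothelin-1 against vehicle and 1.77 to 2.69 for both against endothelin-1. TGFBI did so in both comparisons of the combination with a single compound. For these results the fit with exchanged labels swaps called comparisons by construction and could not end a call.

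For members called, endothelin-1 against vehicle (4 in the reported fit) gave 2 after thinning and 1 with labels exchanged, and 2 to 4 with 1 library left out. Both against endothelin-1 (6) gave 3 to 6 with 1 library left out, with 3 without the combination replicate 3. Sacubitrilat against vehicle (1) gave 2 under RLE scaling, without a filter and with DESeq2, and 4 with labels exchanged. Endothelin-1 against sacubitrilat (3) gave 5 in the compared groups alone and without the 2 libraries under 100000 counts, 0 after thinning, and 3 to 5 with 1 library left out. Both against vehicle (1) gave 2 under RLE scaling, with a mean of at least 20 counts and without the 2 low libraries, 3 with DESeq2, 0 without a filter, with limma-voom, with a replicate block, in the compared groups alone and after thinning, and 0 to 2 with 1 library left out. The difference in differences (5) gave 4 after thinning and without the 2 low libraries.

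The replicate block ended the calls of LTBP3 for both against endothelin-1 (adjusted p = 0.0546) and of FSTL3 for both against vehicle (adjusted p = 0.104), and no other called member lost its call under it. Over all genes it called 10 in place of 20 for both against vehicle.

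Signs reversed for these log2 fold changes. Exchanged labels swap each endothelin-1 comparison with the matching sacubitrilat comparison, so all reversals in that setting arise by construction. For the other settings the cause was not tested. With labels exchanged, FSTL3 gave -0.55 for endothelin-1 against vehicle and 0.55 for sacubitrilat against vehicle, LTBP3 gave 0 for both against endothelin-1 and -0.69 for both against sacubitrilat, and endothelin-1 against sacubitrilat changed sign by construction: TGFB1 -0.44, TGFB2 0.11, LTBP1 -1.13, LTBP3 -0.69, TGFBR1 0.02, TGFBR2 0.13, TGFBI -0.26 and FSTL3 -1.09, and, of the named pathway genes, FBN1 -0.86, FBN2 -1.13, ITGB3 -0.95, ITGB8 2.36, ACVR2B 0.49, INHBA -1.01, GDF15 -0.93, GREM1 1.36, BGN -0.96, SMAD7 -0.76, SMAD9 -0.82, TGIF1 0.51, TGIF2 0.54, LDLRAD4 -0.93, POSTN -1.54, TNC 1.47, LOX -1.97, IGFBP3 0.87, IGFBP7 -1.75 and HAS2 0.77. TNC also turned to 0.54 for endothelin-1 against vehicle. After thinning, LTBP1 (-0.11), TGFBR1 (0.53) and TGFBR2 (-1.41) reversed for sacubitrilat against vehicle, LTBP3 for both against sacubitrilat (-0.57) and against vehicle (-0.5), TGFB2 (0.32), TGFBR2 (2.05), GREM1 (0) and HAS2 (0.98) for endothelin-1 against sacubitrilat, and TGFBR2 for the difference in differences (2.01, and 0.25 with limma-voom). LTBP3 gave -0.12 for sacubitrilat against vehicle with a mean of at least 20 counts and, without a filter, -0.49 for both against sacubitrilat and -0.15 for both against vehicle. TGFBR1 for endothelin-1 against sacubitrilat gave 0.01 with DESeq2, 0.02 with limma-voom and 0.01 without the 2 low libraries. With 1 library left out, values that crossed 0 ran from -0.06 to 0.15 for LTBP3 in sacubitrilat against vehicle, -0.08 to 0.13 in both against sacubitrilat and -0.06 to 0.25 in both against vehicle, from -0.71 to 0.08 for LTBP1 in both against vehicle, from -0.16 to 0.15 for TGFBR1 and -0.49 to 0.05 for TGFBR2 in endothelin-1 against sacubitrilat, and from -1.05 to 0.38 for TGFBR2 in the difference in differences.

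Over all tested genes, alternatives other than leaving out a library called 587 to 2965 genes for endothelin-1 against vehicle, 1215 to 4839 for both against endothelin-1, 528 to 2596 for sacubitrilat against vehicle, 1354 to 5031 for both against sacubitrilat, 15 to 2024 for endothelin-1 against sacubitrilat, 3 to 156 for both against vehicle and 2150 to 6569 for the difference in differences. Without a filter the median log2 fold change moved from 0.10 to 0.35 for endothelin-1 against vehicle and from -0.23 to -0.71 for both against endothelin-1. The low totals of the vehicle and combination libraries limit TGFB2, TGFB3, TGFBR1 and TGFBR2 most.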
